A study of Mus musculus with 16 samples.

Results

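The genes described here are the axon guidance ligands and receptors of the mouse sciatic nerve, followed in the nerve stump beyond a crush in C57BL/6 mice and in WldS mice. They were chosen by name alone, as every gene with a single symbol in the array's probe table that belongs to the semaphorins (Sema3 to Sema7), plexins, neuropilins, Eph receptors, ephrins, Slits, Robos, netrins or Unc5 receptors. The rule found 70 genes of 18193. Of these, 62 were bright enough to be tested and 8 were dim. Of the 70, 3 were matched by their names without being guidance ligands or receptors (Unc50, Unc5cl and the antisense RNA Plxna4os1). Unc50 and Unc5cl are among the 62 tested and are included in all counts over those genes.

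RNA from sciatic nerve was hybridised to Affymetrix whole-genome mouse arrays. The 8 groups were wild-type C57BL/6 mice and WldS mutants (strain C57BL/6 OlaHsd-Wlds), each as uninjured nerve (day 0) and at days 3, 7 and 14 after a microcrush of the left nerve at mid-thigh. Each group had 2 arrays. The mice, 56 of each strain, were 8 to 12 weeks old, and the stump segment was 4 mm long, from 1 to 5 mm beyond the lesion, with stumps pooled within a group before RNA extraction. The labels call the 2 arrays of a group biological replicates, but neither the number of mice in a pool nor how the pools were made is given, so every p-value below reflects the spread between 2 pools and not between mice. WldS is a spontaneous mutation that slows the breakdown of axons cut off from their cell bodies. The WldS mice are a separate substrain, so the mutation and any other difference between the substrains cannot be told apart.

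Guidance cues steer growing axons and migrating cells by attraction or repulsion. Semaphorins, secreted or held in the membrane, signal through plexins, and the secreted class 3 forms mostly need a neuropilin as coreceptor. Ephrins sit on the cell surface and bind Eph receptor tyrosine kinases on the neighbouring cell, Slits bind Robos, and netrins bind Unc5 receptors among others. After a nerve crush the axons beyond the lesion break down, Schwann cells give up their myelin and turn into repair cells, macrophages enter, and regrowing axons later pass through the same stump, in contact with cells that carry these cues.

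For 60 of the 70 genes RefSeq promoter windows on GRCm38.p6 were at hand, each running from 250 bases before to 50 bases after a start site. Both strands of the 76 windows were searched for TGANTCA, the letters bound by the AP-1 factors, and for GCGNGGGCG, the letters bound by Egr zinc finger factors; neither motif contains the other. TGANTCA was present in 3.95% of the 76 windows (Sema4c, Sema4d and Sema6b) and in 7.81% of all 32851 windows. GCGNGGGCG was present in 18.4% of the 76 windows, those of 14 genes, and in 5.55% of all windows. The guidance gene windows had a median GC content of 64.2%, against 52.7% for all windows, and the motif with the higher share is itself made almost wholly of G and C. The windows of 5 genes that moved in C57BL/6 nerve and are described below are shown, chosen after their values were seen, with capitals for any match to either motif. The first 3 windows hold one GCGNGGGCG match each and the last 2 hold neither motif. Over all genes with a window, the match did not go with one direction of change: of the 14 genes that hold it, 2 were higher (Plxnb2 and Unc5b), 5 lower and 7 not called at day 3 in C57BL/6, and of the 46 without it 10 were higher, 16 lower, 14 not called and 6 dim. A match describes letters in this window only.
Sema5a (chr15:32244563-32244862 on the plus strand): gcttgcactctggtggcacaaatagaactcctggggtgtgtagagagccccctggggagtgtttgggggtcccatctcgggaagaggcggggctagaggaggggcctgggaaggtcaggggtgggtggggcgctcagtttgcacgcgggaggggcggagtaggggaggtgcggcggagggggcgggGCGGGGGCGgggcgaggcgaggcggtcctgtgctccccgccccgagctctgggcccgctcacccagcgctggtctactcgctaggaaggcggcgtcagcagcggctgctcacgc
Sema4g (chr19:44989094-44989393 on the plus strand): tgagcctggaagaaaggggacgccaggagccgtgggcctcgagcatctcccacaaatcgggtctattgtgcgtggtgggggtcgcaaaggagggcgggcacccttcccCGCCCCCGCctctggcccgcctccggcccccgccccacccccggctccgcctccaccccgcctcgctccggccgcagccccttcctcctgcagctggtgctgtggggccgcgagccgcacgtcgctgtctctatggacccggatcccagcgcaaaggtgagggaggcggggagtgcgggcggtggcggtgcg
Slit2 (chr5:47982905-47983204 on the plus strand): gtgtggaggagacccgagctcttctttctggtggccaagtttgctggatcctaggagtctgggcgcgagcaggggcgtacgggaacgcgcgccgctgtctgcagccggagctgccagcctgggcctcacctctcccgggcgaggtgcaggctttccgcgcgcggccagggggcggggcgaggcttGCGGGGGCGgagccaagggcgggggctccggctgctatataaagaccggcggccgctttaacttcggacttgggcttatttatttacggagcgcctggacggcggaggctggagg
Epha5 (chr5:84417333-84417632 on the minus strand): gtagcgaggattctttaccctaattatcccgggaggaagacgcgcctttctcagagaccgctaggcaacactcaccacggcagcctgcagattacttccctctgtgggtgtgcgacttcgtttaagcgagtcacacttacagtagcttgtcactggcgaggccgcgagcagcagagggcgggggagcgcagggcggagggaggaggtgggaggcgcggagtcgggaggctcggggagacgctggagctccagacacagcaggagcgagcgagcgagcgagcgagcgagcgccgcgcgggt
Sema4f (chr6:82939720-82940019 on the minus strand): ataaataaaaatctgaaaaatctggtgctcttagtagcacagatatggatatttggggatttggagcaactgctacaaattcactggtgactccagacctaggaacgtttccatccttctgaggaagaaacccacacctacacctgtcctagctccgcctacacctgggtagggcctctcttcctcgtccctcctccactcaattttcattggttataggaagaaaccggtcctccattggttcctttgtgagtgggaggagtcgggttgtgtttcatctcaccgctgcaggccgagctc

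Values are the deposited log2 signals of 1 probe set per gene, the one with the highest mean over the 16 arrays, so a difference of 1 is a 2-fold change. Levels are compared only within a gene, since probe sets bind with unequal strength. Differences are given with their standard error (SE) from limma, fitted to all 16 arrays with n = 2 pools a group, and a gene was called higher or lower where the p-value adjusted by the Benjamini-Hochberg method over all 14545 genes tested was below 0.05. Of the 16 arrays, 2 stood apart in the 3'/5' index, a measure of RNA integrity that is the log2 signal of control probe sets at the 3' end minus that at the 5' end. Replicate 1 of uninjured WldS nerve had an index of 3.81 and replicate 2 of WldS nerve at day 14 had 3.23, against 1.63 to 2.46 in the other arrays. The median SD between the 2 pools of a group over the 62 genes was 0.0659 to 0.150.

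The cell makeup of the stump moved over the same days. The general Schwann cell markers Sox10, S100b and Erbb3 were measured in every group, with a mean level between 10.24 and 11.79 over the arrays, and all 3 were lower at day 3 than at day 0 in both strains, with a median difference of -0.80 in C57BL/6 and -1.10 in WldS. All 5 myelinating Schwann cell markers measured (Pmp22, Mbp, Mag, Ncmap and Egr2) were lower at day 3 than at day 0 in C57BL/6, with a median difference of -1.96, and 4 of the 5 were lower in WldS, with a median of -0.66. Their mean level lay between 12.60 and 12.75 in the C57BL/6 day 0 arrays, 10.00 and 10.01 at day 3, 10.57 and 10.61 at day 7, and 12.48 and 12.63 at day 14, while the WldS arrays lay between 11.94 and 12.77 at all days. Of 8 tested markers of immature or repair Schwann cells, 6 were higher and 1 lower at day 3 in C57BL/6, with a median of 2.64, while in WldS 2 were higher and 4 lower, with a median of -0.14. Over all 9 listed repair markers, including Olig1, which was dim and not tested, the mean level at day 3 was 9.80 to 9.95 in C57BL/6 and 7.64 to 7.91 in WldS, from 7.67 to 7.71 at day 0 in both strains. All 8 macrophage markers were higher at day 3 in both strains, with medians of 2.32 in C57BL/6 and 2.50 in WldS, and all 4 perineurial markers were lower at day 3 in C57BL/6, with a median of -2.10, against 2 of 4 in WldS. Of 7 endothelial markers, 4 were higher at day 3 in WldS and 5 at day 7, against 1 in C57BL/6 on each day. The strains' changes were called different for 0 of these 7 markers at day 3 and for 2 at day 7. All 3 neutrophil markers were higher at day 3 in both strains, with medians of 2.04 in C57BL/6 and 2.49 in WldS, and all 3 adipocyte markers measured were lower at day 3 in C57BL/6, with a median of -2.03, against 1 of 3 in WldS. In pooled tissue, fewer cells of a type and less RNA per cell cannot be told apart, and the part of these shifts in the guidance gene results was not tested.

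The guidance genes changed in both strains, and in C57BL/6 nerve at day 3 more of them fell than rose. At day 3, 36 of the 62 tested genes were called against day 0 in C57BL/6, 12 higher (19.4%) and 24 lower (38.7%), beside 22.6% of all genes tested called higher and 18.4% lower (41% either way). The share higher was thus close to that of all genes, while the share lower was above it. At day 7, 17 were higher and 15 lower, beside 19.6% and 16.4% of all genes (36.1% either way). At day 14, 12 were higher and 14 lower, beside 17.1% and 16.7% of all genes (33.7% either way). In WldS nerve 8 were higher and 11 lower at day 3, beside 20.8% and 15.2% of all genes (36% either way). At day 7 there were 7 higher and 9 lower, beside 21.9% and 13.3% (35.2% either way), and at day 14 there were 9 higher and 7 lower, beside 12.7% and 8.56% (21.3% either way). The WldS shares of the guidance genes ran from 11.3% to 17.7%; those higher at days 3 and 7 were under the background and the others were slightly above it. The median difference over the 62 genes was -0.10 in C57BL/6 at day 3 and 0.03 at day 7, beside 0.02 and 0.02 over all genes. Of the day 3 calls, 24 of 36 in C57BL/6 and 12 of 19 in WldS were kept whichever single array was left out. The count in WldS at day 14 was 16 with all arrays and 10 without WldS day 0 replicate 2.

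**Figure D1:**
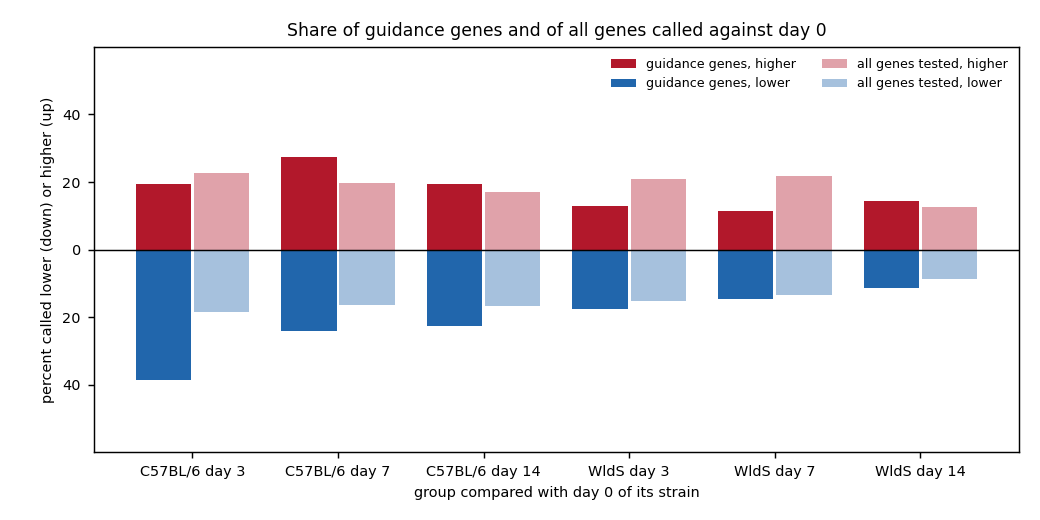
Percent of the 62 tested guidance genes (dark bars) and of all 14545 genes tested (pale bars) called higher (upward, red) or lower (downward, blue) than day 0 of the same strain, for 6 groups of 2 arrays each. The tallest downward bar is C57BL/6 day 3, at 38.7% of the guidance genes against 18.4% of all genes.

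Across both strains and the 3 later days, 47 of the 62 genes (75.8%) were called at least once against day 0, beside 65.2% of all genes tested. The 6 genes (9.68%, beside 10.7% of all genes) called in all 6 comparisons were Sema4d, Nrp1 and Plxnd1, which were higher each time, and Efnb3, Ephb1 and Sema6c, which were lower each time. The 15 never called were Efna2, Efna3, Epha4, Epha6, Epha7, Epha8, Epha10, Ephb4, Nrp2, Sema3f, Sema5b, Sema6b, Slit1, Unc5a and Unc50. That set includes Nrp2, the second neuropilin, and 6 of the 12 tested Eph receptors.

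**Figure D2:**
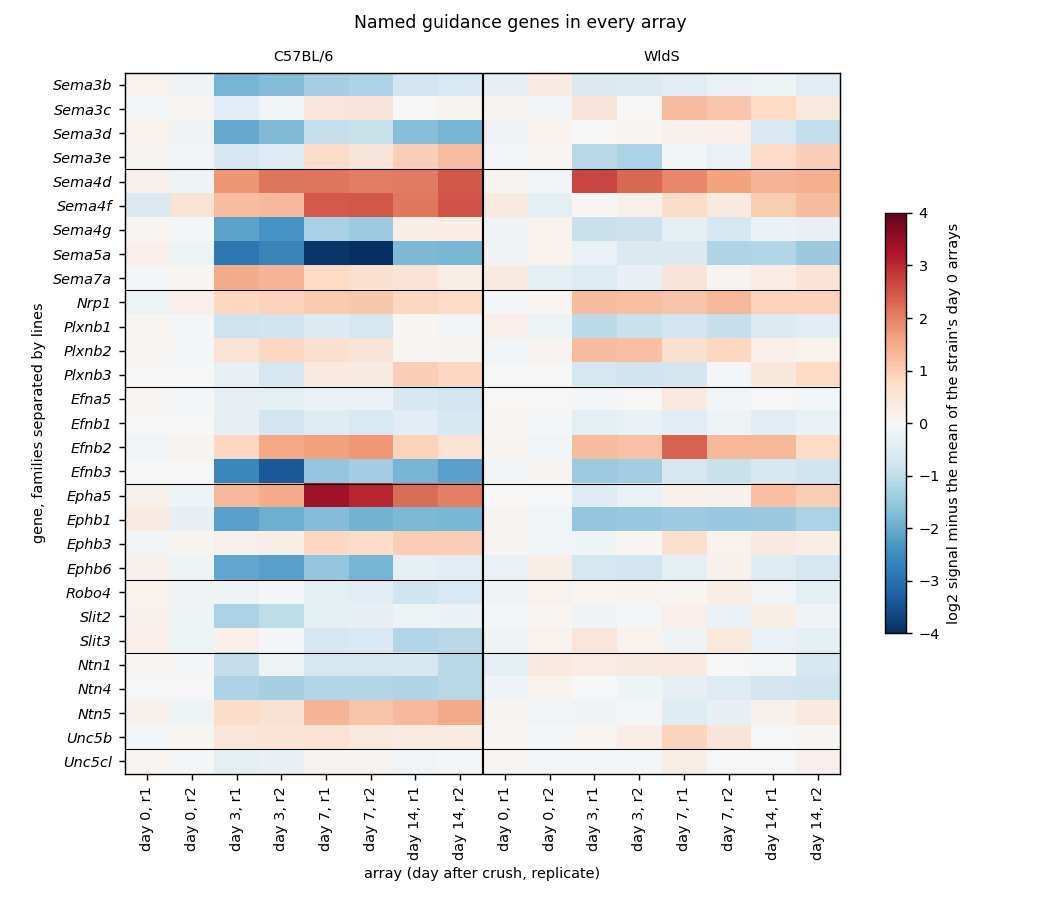
Log2 signal of 29 named guidance genes in each of the 16 arrays minus the mean of the 2 day 0 arrays of the same strain; columns are arrays by day and replicate (r1, r2), each line across is a gene, with families separated by rules, and red is above and blue below day 0. Blue is deepest for Sema5a at day 7 and Efnb3 at day 3 in C57BL/6, and red for Epha5 at day 7 in C57BL/6, while Nrp1, Sema4d, Efnb2 and Ephb1 have the same colour in both strains.

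The secreted class 3 semaphorins, which bind neuropilins or, for Sema3e, plexin D1, mostly fell at day 3 in C57BL/6. Of 6 tested, 4 were lower and none higher at day 3, 2 were lower and 2 higher at day 7, and 3 were lower and 1 higher at day 14, whereas in WldS 2 were lower at day 3, 1 was higher at day 7, and 2 were higher and 1 lower at day 14. Sema3d in C57BL/6 had signals of 10.11 and 9.85 at day 0, 7.93 and 8.22 at day 3, 9.04 and 9.10 at day 7, and 8.28 and 8.10 at day 14. In WldS its signals were 9.34 and 9.62 at day 0, 9.46 and 9.55 at day 3, 9.66 and 9.69 at day 7, and 8.87 and 8.50 at day 14. The C57BL/6 arrays of every later day lay below both day 0 arrays, while in WldS the day 3 and day 7 arrays overlapped or exceeded those of day 0 and the day 14 arrays lay below. The difference from day 0 was -1.90 ± 0.15 at day 3, -0.91 ± 0.15 at day 7 and -1.79 ± 0.15 at day 14 in C57BL/6 (adjusted p from limma 2.3e-07, 3.5e-04 and 1.07e-06), and -0.80 ± 0.15 at day 14 in WldS (adjusted p 0.00205). The change at day 3 differed between the strains by 1.93 ± 0.22 (adjusted p 7.47e-05). A dimmer Sema3d probe set moved the same way and less, with a difference of -0.56 at day 3 in C57BL/6.

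Sema3b, a secreted semaphorin first known as a tumour suppressor candidate, fell at day 3 in C57BL/6 and stayed below day 0 after that. Its C57BL/6 signals were 12.44 and 12.16 at day 0, 10.43 and 10.56 at day 3, 10.98 and 11.07 at day 7, and 11.52 and 11.69 at day 14. Its WldS signals were 11.63 and 12.28 at day 0, 11.38 and 11.42 at day 3, 11.51 and 11.69 at day 7, and 11.79 and 11.52 at day 14. The C57BL/6 groups did not overlap with day 0 at any later day. In WldS both day 3 arrays lay below both day 0 arrays, with a difference of -0.56. WldS day 0 replicate 1 lay among the WldS arrays of days 7 and 14. The C57BL/6 difference was -1.80 ± 0.18 at day 3 and -1.27 ± 0.18 at day 7 (adjusted p 1.83e-06 and 7.13e-05). All 3 Sema3b probe sets were lower at day 3 in C57BL/6, at -1.51 to -1.80, but in WldS they ran from -0.01 to -1.17.

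Sema3e, which binds plexin D1 without a neuropilin, dipped and then rose above its uninjured level. The C57BL/6 arrays had 8.08 and 7.87 at day 0, 7.28 and 7.46 at day 3, 8.71 and 8.49 at day 7, and 8.95 and 9.22 at day 14. Those of WldS had 7.54 and 7.67 at day 0, 6.49 and 6.35 at day 3, 7.50 and 7.33 at day 7, and 8.37 and 8.59 at day 14. It was higher than day 0 at day 14 in C57BL/6 by 1.11 ± 0.14 and in WldS by 0.87 ± 0.14 (adjusted p 3.26e-05 and 5.03e-04), and lower at day 3 in WldS, with a difference of -1.18 ± 0.14 (adjusted p 1.63e-05). With the mean of all Sema3e probe sets the WldS difference at day 14 was 0.18 and was not called, and the day 3 difference of -0.60 in C57BL/6 was -0.10 and not called. Sema3c, a secreted cue that binds both neuropilins, was highest at day 7 in both strains. It measured 9.61 and 9.78 at day 0, 9.27 and 9.59 at day 3, 10.19 and 10.19 at day 7, and 9.67 and 9.79 at day 14 in C57BL/6 and 9.42 and 9.23 at day 0, 9.82 and 9.32 at day 3, 10.60 and 10.42 at day 7, and 10.10 and 9.73 at day 14 in WldS. The day 7 difference was 1.19 ± 0.17 in WldS (adjusted p 1.58e-04). In C57BL/6 it was 0.50 ± 0.17, with an adjusted p of 0.0385 that rose above the threshold without any one of the 4 C57BL/6 arrays of day 0 and day 7, to at most 0.205.

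Among the membrane semaphorins the largest fall and some of the largest rises of all guidance genes were found. Of 13 tested, 5 were higher and 6 lower at day 3 in C57BL/6, 3 higher and 4 lower at day 7, and 2 higher and 2 lower at day 14, against 2 and 3, 1 and 4, and 2 and 2 in WldS. Sema5a, a transmembrane semaphorin with thrombospondin repeats whose window is shown above, had C57BL/6 signals of 11.10 and 10.69 at day 0, 8.01 and 8.23 at day 3, 7.02 and 6.92 at day 7, and 9.09 and 9.08 at day 14. Its WldS signals were 10.42 and 10.68 at day 0, 10.29 and 9.98 at day 3, 9.98 and 9.35 at day 7, and 9.39 and 9.08 at day 14. In C57BL/6 it dropped at day 3, was lowest at day 7 and had partly returned at day 14, whereas in WldS it declined slowly, and the arrays of both strains overlapped at day 14 or nearly so. The difference from day 0 was -2.77 ± 0.20 at day 3, -3.93 ± 0.20 at day 7, a 15.2-fold fall, and -1.81 ± 0.20 at day 14 in C57BL/6 (adjusted p 7.63e-08, 3.85e-09 and 1.04e-05). In WldS it was -0.89 ± 0.20 at day 7 and -1.32 ± 0.20 at day 14 (adjusted p 0.00359 and 3.5e-04). The strains' changes differed by 2.36 ± 0.28 at day 3 and 3.04 ± 0.28 at day 7 (adjusted p 1.46e-04 and 2.38e-05). The other bright Sema5a probe set changed by -2.97, -4.03 and -1.78 in C57BL/6.

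Sema4g, a class 4 transmembrane semaphorin, fell at day 3 in C57BL/6 and was not called different from day 0 at day 14. The C57BL/6 signals were 9.47 and 9.32 at day 0, 7.25 and 6.99 at day 3, 8.11 and 7.95 at day 7, and 9.62 and 9.69 at day 14. The WldS signals were 9.11 and 9.41 at day 0, 8.37 and 8.41 at day 3, 8.89 and 8.56 at day 7, and 9.02 and 8.95 at day 14. Its difference from day 0 in C57BL/6 was -2.27 ± 0.14 at day 3, -1.36 ± 0.14 at day 7 and 0.26 ± 0.14 at day 14 (adjusted p 1.99e-08 and 4.25e-06 for the first and second, the last not called), and in WldS -0.87 ± 0.14 at day 3 (adjusted p 2.74e-04). The day 3 changes differed by 1.40 ± 0.20 (adjusted p 6.87e-04). From day 7 to day 14 it rose by 1.63 ± 0.14 in C57BL/6 (adjusted p 6.89e-06).

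Sema4d, known as CD100 and as a ligand of plexin B1, rose in both strains. It measured 7.43 and 7.11 at day 0, 9.04 and 9.40 at day 3, 9.41 and 9.30 at day 7, and 9.34 and 9.77 at day 14 in C57BL/6. In WldS it measured 7.26 and 7.06 at day 0, 9.83 and 9.46 at day 3, 9.08 and 8.76 at day 7, and 8.51 and 8.58 at day 14. No later array overlapped with day 0 in either strain. The rise at day 3 was 1.95 ± 0.18 in C57BL/6 and 2.49 ± 0.18 in WldS (adjusted p 1.11e-06 and 1.81e-07), and at day 14 it was 2.29 ± 0.18 and 1.39 ± 0.18 (adjusted p 5.85e-07 and 1.13e-04). The 2 dimmer Sema4d probe sets moved by no more than 0.32 in any of these comparisons. At day 14 WldS was lower than C57BL/6, with a difference of -1.01 ± 0.18 (adjusted p 0.00477), and this difference was not called without C57BL/6 day 14 replicate 2 (adjusted p 0.0722).

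Sema4f, a class 4 transmembrane semaphorin of the nervous system, rose in C57BL/6 and was above day 0 at day 14 in WldS. Its C57BL/6 signals were 5.55 and 6.68 at day 0, 7.33 and 7.40 at day 3, 8.56 and 8.61 at day 7, and 8.21 and 8.64 at day 14, with the widest gap between the 2 day 0 pools of any guidance gene. In WldS they were 6.76 and 5.97 at day 0, 6.43 and 6.58 at day 3, 7.10 and 6.76 at day 7, and 7.39 and 7.62 at day 14. The C57BL/6 difference was 2.47 ± 0.30 at day 7 and 2.31 ± 0.30 at day 14 (adjusted p 2e-05 and 4.85e-05), and a second probe set gave 4.40 and 4.44. WldS was lower than C57BL/6 at day 7, with a difference of -1.65 ± 0.30 (adjusted p 0.00358). The WldS difference from day 0 was 0.56 at day 7 and 1.14 at day 14. The strains' changes at day 14 were not called different (adjusted p from limma 0.254).

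Sema7a, which is anchored in the membrane by a lipid and binds plexin C1 and integrins, rose at day 3 in C57BL/6. It measured 9.14 and 9.30 at day 0, 10.70 and 10.57 at day 3, 10.02 and 9.86 at day 7, and 9.76 and 9.50 at day 14 in C57BL/6, and 9.75 and 9.03 at day 0, 8.87 and 9.10 at day 3, 9.92 and 9.49 at day 7, and 9.68 and 9.93 at day 14 in WldS. Both C57BL/6 day 3 arrays lay above every other array of either strain. The C57BL/6 difference at day 3 was 1.42 ± 0.21 (adjusted p 7.09e-05), the WldS difference was -0.41 ± 0.21 and not called, and the 2 changes differed by -1.83 ± 0.29 (adjusted p 0.00158). The remaining membrane semaphorins called at day 3 in C57BL/6 were Sema6d (-1.58 ± 0.20), Sema6c (-0.77 ± 0.17), Sema4c (-0.98 ± 0.27) and Sema6a (-0.62 ± 0.14), which were lower, and Sema4a (0.82 ± 0.22) and Sema4b (0.56 ± 0.18), which were higher. The Sema4a call was lost without C57BL/6 day 0 replicate 1 (adjusted p 0.0545), and the Sema4b call without C57BL/6 day 0 replicate 2 or day 3 replicate 1 (adjusted p 0.133 and 0.22). Sema4c fell in WldS too, with a difference of -1.55 ± 0.27 (adjusted p 4.4e-04). In WldS, Sema6c also fell and Sema4a also rose at day 3, with differences of -0.70 and 0.84. Among these remaining genes the strains' changes at day 3 were called different only for Sema6d (adjusted p from limma 0.0372). All other bright Sema6a probe sets moved by 0.01 or less in size at day 3 in C57BL/6, so the Sema6a call rests on 1 probe set.

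**Figure D3:**
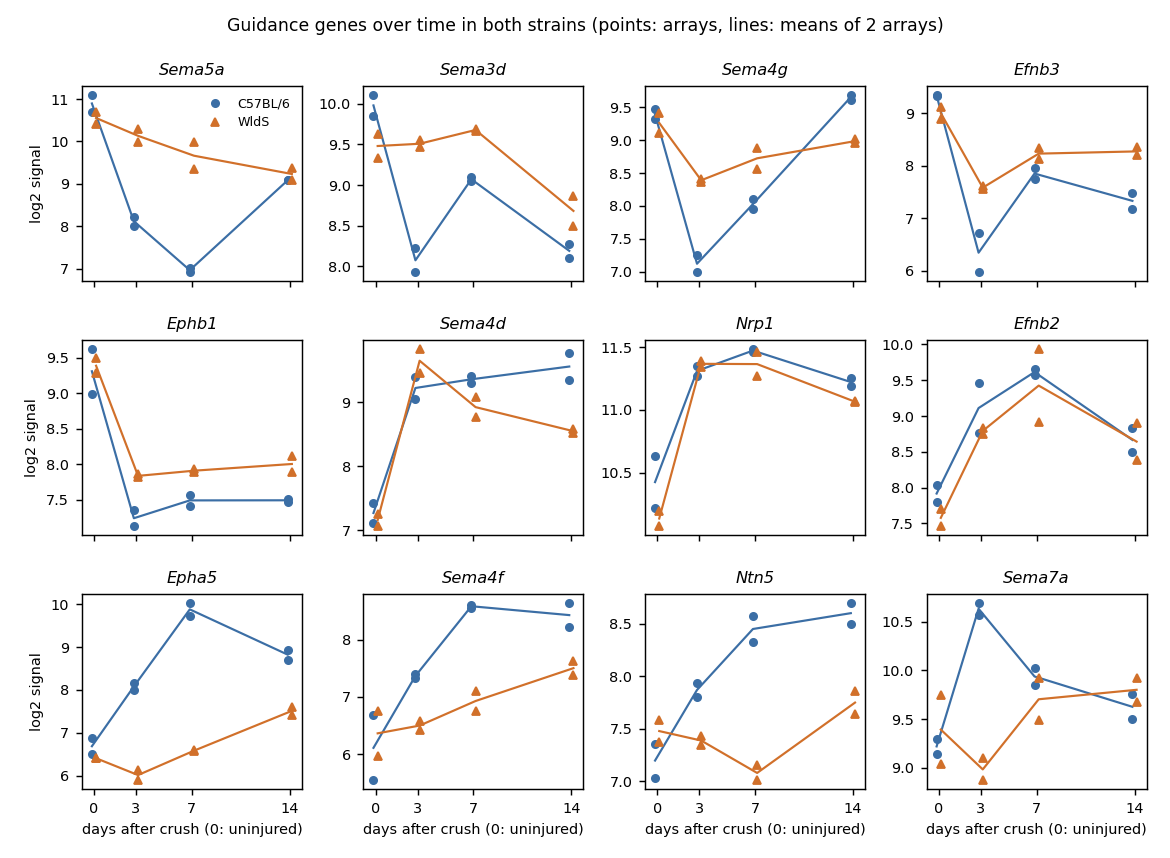
Log2 signal (vertical axis) of 12 guidance genes against days after crush (horizontal axis, day 0 uninjured) in C57BL/6 (blue circles) and WldS (orange triangles); each point is 1 array and lines join the means of 2 arrays. Sema5a, Sema3d and Sema4g fall in C57BL/6 and less or later in WldS, Sema4d, Nrp1 and Efnb2 rise in both, and Epha5 reaches 10.03 and 9.73 at day 7 in C57BL/6 against 6.58 and 6.59 in WldS.

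The receptors of the semaphorins moved both ways. Of the 11 neuropilins and plexins tested, 3 were higher and 5 lower at day 3 in C57BL/6, 4 higher and 2 lower at day 7, and 6 higher and none lower at day 14, while in WldS 4 were higher and 2 lower, 3 higher and 1 lower, and 3 higher and 1 lower. Nrp1, the coreceptor of class 3 semaphorins and of vascular endothelial growth factor, rose in both strains. The C57BL/6 signals were 10.22 and 10.63 at day 0, 11.27 and 11.35 at day 3, 11.46 and 11.49 at day 7, and 11.25 and 11.19 at day 14. Those of WldS were 10.07 and 10.20 at day 0, 11.39 and 11.34 at day 3, 11.27 and 11.46 at day 7, and 11.06 and 11.07 at day 14. Every later array lay above both day 0 arrays of its strain. The difference was 0.89 ± 0.13, 1.05 ± 0.13 and 0.80 ± 0.13 at days 3, 7 and 14 in C57BL/6 and 1.23 ± 0.13, 1.23 ± 0.13 and 0.93 ± 0.13 in WldS, with adjusted p between 5.77e-06 and 3.21e-04. All 4 Nrp1 probe sets were higher at each of these days. The difference between the strains' changes at day 3 was 0.35 ± 0.18 and was not called.

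Plxnd1, the receptor of Sema3e, was higher by 0.74 ± 0.12, 0.65 ± 0.12 and 0.72 ± 0.12 in C57BL/6 and by 0.66 ± 0.12, 0.61 ± 0.12 and 0.53 ± 0.12 in WldS (adjusted p at most 0.00494). Plxnb2, a B class plexin, was up at days 3 and 7 and near its uninjured level at day 14. Its signals were 9.58 and 9.48 at day 0, 10.10 and 10.36 at day 3, 10.17 and 10.04 at day 7, and 9.59 and 9.64 at day 14 in C57BL/6. In WldS they were 9.15 and 9.38 at day 0, 10.52 and 10.47 at day 3, 9.89 and 10.10 at day 7, and 9.48 and 9.42 at day 14. The day 3 rise was 0.70 ± 0.12 in C57BL/6 and 1.23 ± 0.12 in WldS (adjusted p 3.98e-04 and 3.96e-06).

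Plxnb1, the receptor of Sema4d, fell at day 3 in both strains. The C57BL/6 arrays read 9.66 and 9.49 at day 0, 8.75 and 8.76 at day 3, 9.03 and 8.92 at day 7, and 9.65 and 9.48 at day 14. The WldS arrays read 10.22 and 9.82 at day 0, 8.99 and 9.13 at day 3, 9.26 and 9.10 at day 7, and 9.48 and 9.57 at day 14. The day 3 difference was -0.82 ± 0.14 in C57BL/6 and -0.96 ± 0.14 in WldS (adjusted p 2.43e-04 and 8.67e-05). Its second probe set gave -2.81 in C57BL/6 and -1.22 in WldS, so the size of the C57BL/6 fall depends on the probe set. Plxnb3, a receptor of Sema5a, ended above its uninjured level in both strains. Its signals were 9.53 and 9.49 at day 0, 9.20 and 8.80 at day 3, 9.90 and 9.88 at day 7, and 10.50 and 10.35 at day 14 in C57BL/6 and 9.84 and 9.86 at day 0, 9.14 and 9.06 at day 3, 9.12 and 9.76 at day 7, and 10.30 and 10.63 at day 14 in WldS. The difference was 0.91 ± 0.18 at day 14 in C57BL/6 and -0.75 ± 0.18 at day 3 in WldS (adjusted p 0.00163 and 0.00592), and with the mean of both probe sets the WldS fall was -0.46 and not called. The day 14 difference in WldS was 0.62 and the day 3 difference in C57BL/6 was -0.51. The strains' changes in Plxnb3 were not called different at day 3 or day 14 (adjusted p from limma 0.671 and 0.753).

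Plxnc1, the receptor of Sema7a, differed between the strains in both directions over time. It was higher at day 7 and day 14 in C57BL/6 by 0.72 ± 0.12 and 0.56 ± 0.12 (adjusted p 3.31e-04 and 0.00263). WldS lay above C57BL/6 at day 3 by 0.66 ± 0.12 and below it at day 7 and day 14, with differences of -0.69 ± 0.12 and -0.75 ± 0.12 (adjusted p 0.0026, 0.00276 and 0.00213). At day 3 its probe sets disagreed in C57BL/6, at -0.34 and 0.43 for the bright ones, while both gave a larger change in WldS, by 0.83 and 0.85. Plxna3, an A class plexin that pairs with neuropilins, was lower at day 3 in C57BL/6, with a difference of -0.81 ± 0.11 (adjusted p 5.5e-05), against -0.09 in its other probe set.

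The B class ephrins, which span the membrane and can signal back into their own cell, went apart from one another. Of 8 ephrins tested, 1 was higher and 2 lower at day 3 in C57BL/6, 2 and 2 at day 7 and 0 and 4 at day 14, while in WldS 1 was higher and 1 lower at each day. Efnb3 fell. The C57BL/6 signals were 9.35 and 9.32 at day 0, 6.71 and 5.97 at day 3, 7.74 and 7.95 at day 7, and 7.48 and 7.17 at day 14. Those of WldS were 8.89 and 9.11 at day 0, 7.55 and 7.61 at day 3, 8.33 and 8.12 at day 7, and 8.35 and 8.19 at day 14. No later array overlapped with day 0 in either strain. In C57BL/6 the differences were -2.99 ± 0.20 at day 3, a 7.96-fold fall, -1.49 ± 0.20 at day 7 and -2.01 ± 0.20 at day 14 (adjusted p 2.9e-08, 3.81e-05 and 3.17e-06). In WldS the day 3 difference was -1.42 ± 0.20 (adjusted p 6.39e-05), and the 2 strains' day 3 changes differed by 1.57 ± 0.28 (adjusted p 0.0033).

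Efnb2, a ligand best known from the arterial wall, rose in both strains. It measured 7.80 and 8.03 at day 0, 8.76 and 9.46 at day 3, 9.57 and 9.66 at day 7, and 8.83 and 8.50 at day 14 in C57BL/6 and 7.70 and 7.46 at day 0, 8.84 and 8.75 at day 3, 9.94 and 8.91 at day 7, and 8.90 and 8.38 at day 14 in WldS. All later arrays of both strains lay above day 0, with a wide gap between the 2 WldS day 7 pools. The day 7 rise was 1.70 ± 0.29 in C57BL/6 and 1.85 ± 0.29 in WldS (adjusted p 3.64e-04 and 2.52e-04), and the second of the brighter probe sets gave 1.16 and 1.13. Efnb1 was called lower in C57BL/6. Its signals there were 9.71 and 9.71 at day 0, 9.37 and 8.95 at day 3, 9.21 and 9.10 at day 7, and 9.27 and 9.05 at day 14. Its WldS signals were 9.91 and 9.74 at day 0, 9.44 and 9.57 at day 3, 9.37 and 9.63 at day 7, and 9.40 and 9.56 at day 14. Every later WldS array lay below both WldS day 0 arrays, with differences of -0.32, -0.33 and -0.35 at days 3, 7 and 14, none called. The strains' changes in Efnb1 were not called different at any day (adjusted p from limma 0.593, 0.63 and 0.804). The C57BL/6 difference at day 3 was -0.55 ± 0.15 (adjusted p 0.00762), lost without C57BL/6 day 3 replicate 2 (adjusted p 0.117), and at day 7 it was -0.55 ± 0.15 (adjusted p 0.00915), lost without C57BL/6 day 7 replicate 2 (adjusted p 0.0733). Efna5, an A class ephrin held by a lipid anchor, was lower at day 14 in C57BL/6. Its arrays there had 8.37 and 8.30 at day 0, 8.00 and 7.98 at day 3, 8.09 and 8.07 at day 7, and 7.71 and 7.56 at day 14, while those of WldS had 8.17 and 8.21 at day 0, 8.13 and 8.21 at day 3, 8.57 and 8.09 at day 7, and 8.17 and 8.11 at day 14. The C57BL/6 arrays of each later day lay below day 0 and the WldS groups overlapped, and the C57BL/6 difference at day 14 was -0.70 ± 0.13 (adjusted p 0.00107). WldS was called higher than C57BL/6 at day 14, by 0.50. The strains' changes in Efna5 were not called different at days 3, 7 or 14 (adjusted p from limma 0.363, 0.295 and 0.13).

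Of the Eph receptors, the A class receptor Epha5 rose and 2 B class receptors fell. Among 12 tested, 1 was higher and 3 lower at day 3 in C57BL/6, 3 and 2 at day 7 and 2 and 1 at day 14, and in WldS 1 and 2, 0 and 1, and 1 and 1. Epha5 in C57BL/6 had signals of 6.87 and 6.50 at day 0, 7.99 and 8.17 at day 3, 10.03 and 9.73 at day 7, and 8.94 and 8.71 at day 14. In WldS it had 6.41 and 6.41 at day 0, 5.89 and 6.14 at day 3, 6.58 and 6.59 at day 7, and 7.61 and 7.42 at day 14. The C57BL/6 arrays of each later day lay above every WldS array of the same day, with no overlap. In C57BL/6 the difference from day 0 was 1.39 ± 0.15 at day 3, 3.19 ± 0.15 at day 7, a 9.13-fold rise, and 2.14 ± 0.15 at day 14 (adjusted p 4.69e-06, 1.95e-09 and 2.19e-07). In WldS it was -0.39 ± 0.15 and 0.18 ± 0.15 at days 3 and 7, neither called, and 1.10 ± 0.15 at day 14 (adjusted p 1.57e-04). The strains' changes differed by -1.79 ± 0.22 at day 3 and -3.02 ± 0.22 at day 7 (adjusted p 1.53e-04 and 2.02e-06). All 4 Epha5 probe sets were above the dim threshold, and at day 7 in C57BL/6 they gave 3.19, 3.92, 3.49 and 1.45.

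Ephb1 fell in both strains and did not return. It measured 9.63 and 8.99 at day 0, 7.13 and 7.36 at day 3, 7.57 and 7.41 at day 7, and 7.52 and 7.47 at day 14 in C57BL/6 and 9.50 and 9.28 at day 0, 7.82 and 7.86 at day 3, 7.93 and 7.89 at day 7, and 7.89 and 8.12 at day 14 in WldS. The groups of day 0 and of later days did not overlap in either strain. The difference at day 3 was -2.07 ± 0.17 in C57BL/6 and -1.55 ± 0.17 in WldS, and at day 14 -1.82 ± 0.17 and -1.38 ± 0.17 (adjusted p at most 6.41e-05). Ephb6, an Eph receptor without kinase activity, fell at days 3 and 7 in C57BL/6 and by less at day 3 in WldS. Its C57BL/6 signals were 8.62 and 8.24 at day 0, 6.36 and 6.25 at day 3, 6.85 and 6.57 at day 7, and 8.07 and 7.97 at day 14. Its WldS signals were 7.82 and 8.38 at day 0, 7.39 and 7.32 at day 3, 7.73 and 8.27 at day 7, and 7.62 and 7.42 at day 14. The differences in C57BL/6 were -2.12 ± 0.20, -1.72 ± 0.20 and -0.41 ± 0.20, the last not called (adjusted p 1.19e-06 and 1.35e-05 for days 3 and 7), and the change at day 7 differed between strains by 1.62 ± 0.28 (adjusted p 0.0052). In WldS the day 3 difference was -0.74, and both day 3 arrays lay below both day 0 arrays. Ephb3 rose late in C57BL/6. It read 9.48 and 9.72 at day 0, 9.79 and 9.83 at day 3, 10.43 and 10.36 at day 7, and 10.58 and 10.58 at day 14 there and 9.88 and 9.66 at day 0, 9.61 and 9.84 at day 3, 10.42 and 9.92 at day 7, and 10.15 and 10.05 at day 14 in WldS. The difference was 0.79 ± 0.15 at day 7 and 0.98 ± 0.15 at day 14 in C57BL/6 (adjusted p 0.00108 and 2.34e-04), and the difference between the strains' changes at day 14, -0.65 ± 0.22, was not called.

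Slit2 and Slit3, secreted repellents that bind Robos, were lower in C57BL/6 at different times. None of the 4 Slits and Robos tested was called in WldS against day 0, but the difference between the strains' changes was called only for Slit2 at day 3 (1.05 ± 0.24, adjusted p 0.0173), a call that ended under 5 of the 16 single-array omissions. It was not called for Slit3 (adjusted p 0.129 at day 7 and 0.189 at day 14) or Robo4 (adjusted p 0.404 at day 14). In C57BL/6, 1 of the 4 was lower at day 3, 2 at day 7 and 2 at day 14, with none higher. For Slit2, whose window is among those shown, the C57BL/6 signals were 11.60 and 11.26 at day 0, 10.16 and 10.41 at day 3, 11.09 and 11.11 at day 7, and 11.23 and 11.21 at day 14. The WldS signals were 11.16 and 11.32 at day 0, 11.09 and 11.19 at day 3, 11.44 and 10.99 at day 7, and 11.49 and 11.11 at day 14. Both C57BL/6 day 3 arrays lay below all other Slit2 values of either strain. The difference at day 3 was -1.15 ± 0.17 (adjusted p 7.29e-05), and the other bright probe sets gave -2.40 and -1.33. Slit3 fell later. Its signals in C57BL/6 were 8.83 and 8.40 at day 0, 8.81 and 8.56 at day 3, 7.90 and 8.00 at day 7, and 7.45 and 7.51 at day 14, and in WldS 8.18 and 8.48 at day 0, 8.80 and 8.47 at day 3, 8.18 and 8.74 at day 7, and 8.08 and 7.98 at day 14. The difference at day 14 was -1.13 ± 0.19 in C57BL/6 (adjusted p 4.29e-04). Robo4, the Robo of endothelial cells, measured 7.92 and 7.63 at day 0, 7.59 and 7.71 at day 3, 7.39 and 7.32 at day 7, and 6.99 and 7.18 at day 14 in C57BL/6. In WldS it measured 7.34 and 7.64 at day 0, 7.53 and 7.60 at day 3, 7.56 and 7.73 at day 7, and 7.37 and 7.11 at day 14. It was lower at day 14 in C57BL/6, with a difference of -0.70 ± 0.14 (adjusted p 0.00178), where 3 of 7 endothelial markers were lower too (median over the 7, -0.48); the part of that shift in the Robo4 result was not tested. Robo1, Robo2 and Robo3 were dim, with group means from 4.16 to 5.47, so no statement is made on them.

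The netrins, laminin-like cues, split by member. Of the 6 netrins and Unc5 receptors tested, 2 were higher and 2 lower at day 3 in C57BL/6, 3 and 1 at day 7 and 1 and 2 at day 14, and in WldS 0 and 1, 1 and 2, and 0 and 1. Ntn4, a netrin of basement membranes, fell by day 3 in C57BL/6 and was lower at days 7 and 14 in WldS. The C57BL/6 signals were 11.09 and 11.09 at day 0, 9.86 and 9.77 at day 3, 9.92 and 9.92 at day 7, and 9.90 and 9.98 at day 14. The WldS signals were 10.84 and 11.11 at day 0, 10.96 and 10.81 at day 3, 10.63 and 10.47 at day 7, and 10.24 and 10.18 at day 14. In C57BL/6 the difference was -1.28 ± 0.12 at day 3, -1.17 ± 0.12 at day 7 and -1.15 ± 0.12 at day 14 (adjusted p 7.83e-07, 2.79e-06 and 4.56e-06). In WldS it was -0.42 at day 7 and -0.77 ± 0.12 at day 14 (adjusted p 3.57e-04 for day 14). The day 3 changes differed by 1.19 ± 0.16 (adjusted p 5.03e-04). Ntn5 rose in C57BL/6. It read 7.36 and 7.04 at day 0, 7.94 and 7.80 at day 3, 8.57 and 8.33 at day 7, and 8.50 and 8.70 at day 14 in C57BL/6 and 7.58 and 7.38 at day 0, 7.34 and 7.43 at day 3, 7.01 and 7.15 at day 7, and 7.64 and 7.86 at day 14 in WldS. The C57BL/6 rise was 0.67 ± 0.14, 1.25 ± 0.14 and 1.40 ± 0.14 at the 3 later days (adjusted p 0.00168, 1.09e-05 and 5.14e-06), and the change at day 7 differed from that in WldS by -1.65 ± 0.20 (adjusted p 2.99e-04).

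Ntn1, the founding netrin, varied widely between pools. It measured 10.35 and 10.26 at day 0, 9.36 and 10.10 at day 3, 9.63 and 9.62 at day 7, and 9.62 and 9.18 at day 14 in C57BL/6, and 9.12 and 9.89 at day 0, 9.82 and 9.85 at day 3, 9.89 and 9.51 at day 7, and 9.44 and 8.86 at day 14 in WldS. The only call was at day 14 in C57BL/6, -0.90 ± 0.27 (adjusted p 0.0201), and it was lost without C57BL/6 day 0 replicate 1, day 0 replicate 2 or day 14 replicate 2 (adjusted p 0.105, 0.0665 and 0.168). Unc5b, a netrin receptor found on vessels and neurons, measured 6.73 and 6.87 at day 0, 7.27 and 7.35 at day 3, 7.38 and 7.23 at day 7, and 7.12 and 7.12 at day 14 in C57BL/6. In WldS it measured 7.08 and 6.95 at day 0, 7.05 and 7.29 at day 3, 7.89 and 7.53 at day 7, and 7.03 and 7.07 at day 14. The rise in WldS at day 7 was 0.69 ± 0.13 (adjusted p 0.00116). The C57BL/6 difference at day 7 was 0.50, and the strains' changes in Unc5b at that day were not called different (adjusted p from limma 0.646). In C57BL/6 its day 3 difference of 0.51 ± 0.13 (adjusted p 0.00619) was not called without C57BL/6 day 0 replicate 1 (adjusted p 0.0598). Unc5c, a further netrin receptor, was lower at day 3 in C57BL/6, with a difference of -0.55 ± 0.14 (adjusted p 0.00433) and rose by 0.99 ± 0.14 from day 3 to day 7 (adjusted p 2.38e-04). In WldS its day 3 difference was -0.40, and the strains' changes at that day were not called different (adjusted p from limma 0.698).

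Of the genes that share only a name, Unc5cl, a cytoplasmic relative of Unc5c, measured 5.82 and 5.63 at day 0, 5.36 and 5.42 at day 3, 5.85 and 5.84 at day 7, and 5.61 and 5.66 at day 14 in C57BL/6 and 5.63 and 5.52 at day 0, 5.54 and 5.50 at day 3, 5.80 and 5.55 at day 7, and 5.61 and 5.79 at day 14 in WldS. Its day 3 difference in C57BL/6 was -0.34 ± 0.12 (adjusted p 0.0331). The day 3 signals lay near the dim threshold of 5.37, and the difference was not called without C57BL/6 day 0 replicate 1 or either C57BL/6 day 3 array (adjusted p 0.225, 0.137 and 0.076). Unc50 was never called, and Plxna4os1 was dim. Besides the 3 dim Robos, Sema3a, Epha3, Ntn3 and Unc5d were dim, with group means between 4.39 and 5.83, the highest belonging to Epha3.

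The strains were compared directly at each day. In uninjured nerve no guidance gene was called between the strains by limma, and the lowest adjusted p was 0.181. Of all genes tested, 0.0825% were called higher and 0.144% lower in WldS (0.227% either way). An unadjusted p below 0.05 was found for 9 of 62, but no share of all genes at that threshold was at hand, so this count is not read against the background. Some guidance genes were called without WldS day 0 replicate 2. That setting leaves WldS day 0 with replicate 1 alone, the array with the highest 3'/5' index, and takes its spread from the other groups. At day 3, 11 were higher and 3 lower in WldS than in C57BL/6, beside 4.82% and 4.62% of all genes (9.44% either way); the guidance gene shares were 17.7% and 4.84%, so the higher calls were above the background and the lower ones near it. At day 7, 5 were higher and 7 lower (3.86% and 2.97% of all genes, 6.83% either way). At day 14, 3 were higher and 7 lower (2.9% and 3.55% of all genes, 6.46% either way), and this count of 10 was 3 without C57BL/6 day 14 replicate 2, 6 without C57BL/6 day 14 replicate 1 and 5 without WldS day 14 replicate 1. The strain calls kept under every single-array omission numbered 11 of 14 at day 3, 8 of 12 at day 7 and 3 of 10 at day 14, where they were Epha5, Ntn5 and Plxnc1. Beside these, the myelinating Schwann cell markers changed differently between the strains at day 3 for all 5 measured (median difference of changes 1.48), the repair Schwann cell markers for 6 of 8 tested (median -2.36), and the perineurial markers for 3 of 4; their part in the guidance gene differences was not tested.

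The change since day 0 was also compared between strains, as WldS minus C57BL/6. By this difference of changes, 13 of 62 guidance genes passed at day 3, of which 10 were higher and 3 lower, beside 4.02% and 2.15% of all genes (6.16% either way). At day 7 there were 5 higher and 5 lower, beside 2.89% and 1.22% (4.11% either way), and at day 14 there were 2 higher and 2 lower, beside 0.908% and 0.674% (1.58% either way). The genes called at day 3 with every single-array omission were Sema5a, Sema3d, Sema4g, Efnb3 and Ntn4, which fell in C57BL/6 by more than the WldS difference, and Epha5 and Sema7a, which rose in C57BL/6 and were not called in WldS. At day 7 they were Sema5a, Ephb6, Epha5 and Ntn5, and at day 14 there were none. The count of 10 at day 7 was 4 without C57BL/6 day 0 replicate 1 or day 7 replicate 1, 6 without replicate 2 of either day, and 5 without WldS day 0 replicate 1. The count of 4 at day 14 was 0 when either C57BL/6 day 14 replicate 2 or the first WldS array of day 14 was omitted, 1 when either C57BL/6 day 14 replicate 1 or the first uninjured WldS array was omitted, and 2 without any one of the C57BL/6 arrays of days 0 and 7, the WldS arrays of day 3 or WldS day 14 replicate 2.

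**Figure D4:**
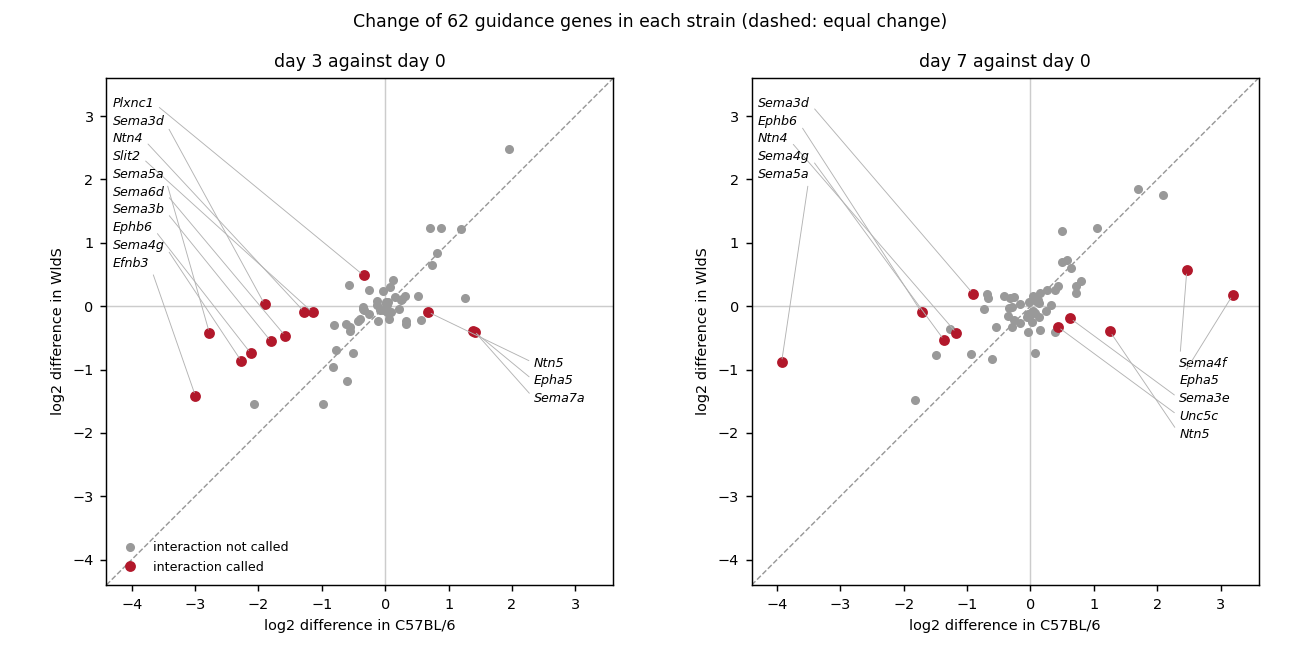
Difference from day 0 on the log2 scale in C57BL/6 (horizontal axis) and in WldS (vertical axis) for the 62 tested guidance genes at day 3 (left) and day 7 (right); each point is 1 gene, the dashed line marks equal change, and red points are the genes whose changes were called different between the strains. At day 3, 10 of the 13 red points lie above the dashed line, most of them at the left where C57BL/6 fell, and at day 7 Sema5a and Epha5 lie farthest from it.

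The calls of the 2 strains, which share no arrays, can be set side by side. At day 3, 17 genes were called in the same direction in both, 47.2% of the 36 C57BL/6 calls and 89.5% of the 19 WldS calls, beside 63% and 71.7% for all genes. At day 7 it was 14 genes, 43.8% and 87.5% (63.5% and 65.1% for all genes), and at day 14 it was 13 genes, 50% and 81.2% (49.9% and 79.2%). The genes called in opposite directions were Plxnc1 at day 3 and Ntn5 at day 7, and neither was kept throughout: the C57BL/6 call of Plxnc1 ended under 6 of the 16 single-array omissions, with an adjusted p of up to 0.176, and the WldS call of Ntn5 under 11, with an adjusted p of up to 0.224. The median size of the change at day 3 was 0.51 in C57BL/6 and 0.24 in WldS over the guidance genes, and 0.30 and 0.27 over all genes. It was wider in C57BL/6 for 67.7% of the guidance genes and 53.9% of all genes at day 3.

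From day 3 to day 7 in C57BL/6, 19 guidance genes rose and 4 fell, beside 9.6% and 10.7% of all genes (20.3% either way), so the rises (30.6% of the guidance genes) exceeded the background and the falls (6.45%) did not. The count of 23 was 12 without C57BL/6 day 3 replicate 1, 13 without C57BL/6 day 7 replicate 1 and 14 without C57BL/6 day 7 replicate 2, and 10 of the calls were kept under every omission. Among these, Efnb3 rose by 1.51 ± 0.20, Plxnc1 by 1.06 ± 0.12, Sema3d by 1.00 ± 0.15 and Sema3e by 1.23 ± 0.14 (adjusted p at most 5.57e-04), while Sema5a fell further, with a difference of -1.15 ± 0.20. From day 7 to day 14, 5 rose and 4 fell, beside 2.48% and 2.79% of all genes (5.27% either way). The calls there that were kept under every omission were rises of Sema5a (2.12 ± 0.20), Sema4g (1.63 ± 0.14) and Ephb6 (1.31 ± 0.20) and falls of Epha5 (-1.06 ± 0.15), Sema3d (-0.88 ± 0.15) and Sema3g (-1.12 ± 0.14). In WldS, 4 rose and 3 fell from day 3 to day 7, beside 3.04% and 3.58% of all genes (6.62% either way), of which Sema3e (0.99 ± 0.14) was kept under every omission, and the count of 7 was 2 without WldS day 3 replicate 1 and 4 when either the other WldS array of day 3 or WldS day 7 replicate 1 was omitted. From day 7 to day 14, 4 rose and 3 fell in WldS, beside 1.61% and 3.62% of all genes (5.23% either way), and the count of 7 was 3 without WldS day 14 replicate 2; Epha5 (0.93 ± 0.15), Sema3e (1.07 ± 0.14) and Sema3d (-0.99 ± 0.15) were kept under every omission.

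Other genes of guidance signalling, a list of 52 further receptors, cues, adhesion molecules and signal carriers, were counted the same way, and 50 were tested. In C57BL/6 at day 3, 13 were higher (26%) and 15 lower (30%), beside 22.6% and 18.4% of all genes. At day 7 it was 13 (26%) and 7 (14%), beside 19.6% and 16.4%, and at day 14 it was 13 (26%) and 8 (16%), beside 17.1% and 16.7%. In WldS it was 8 (16%) and 11 (22%) at day 3, beside 20.8% and 15.2%, then 13 (26%) and 9 (18%) at day 7, beside 21.9% and 13.3%, and 11 (22%) and 6 (12%) at day 14, beside 12.7% and 8.56%. The largest changes were those of Flrt3, a membrane protein with leucine-rich repeats, at 2.32 ± 0.14 at day 7 in C57BL/6, and of the cell adhesion molecule Nrcam at 2.11 ± 0.16 and the hepatocyte growth factor receptor Met at 2.09 ± 0.12 at day 3 in C57BL/6. The adjusted p from limma was at most 1.13e-07 for these 3 genes. The changes of Met and Nrcam at day 3 differed between the strains by -2.62 ± 0.17 and -2.49 ± 0.22 (adjusted p 4.82e-07 and 9.24e-06).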

How the data were processed

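RNA of pooled sciatic nerve was measured on 16 Affymetrix arrays, 2 for each of 8 groups. The authors deposited log2 values for 45101 probe sets, and the submitters' processing notes list GCOS 1.4, Partek, RMA and limma with no roles. Of the probe sets, 34945 had 1 gene symbol, 932 several and 9160 none listed, and 64 were controls. A gene was represented by its brightest probe set on average and tested if that mean reached the 30th percentile of probe sets (log2 5.37), which left 14545 of 18193 genes. All 8 groups were fitted together in limma 3.58.1 (R 4.3.3; 8 residual and 5.82 prior degrees of freedom) with 17 comparisons and Benjamini-Hochberg adjustment over all genes tested. The fit was checked on simulated data. No 2 arrays were identical. The guidance genes and gene lists were chosen with earlier results of these data known. Values in every array are given for up to 4 called genes per family with the largest change and the 12 largest strain differences. The alternatives tried were other filters, probe-set rules, normalizations and variance models, a replicate block, and omission of arrays. Promoter sequences are RefSeq's, on GRCm38.p6.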

Additional observations from a re-analysis of the deposited data

Results flagged for a closer look

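The guidance genes below are singled out because the change from day 0 differed between WldS and C57BL/6 by limma's test of that difference (WldS change minus C57BL/6 change, log2 scale, n = 2 pools a group, adjusted p under 0.05 over all 14545 genes). At day 3 the difference was positive for Sema5a (2.36 ± 0.28), Sema3d (1.93 ± 0.22), Efnb3 (1.57 ± 0.28), Sema4g (1.40 ± 0.20), Ephb6 (1.38 ± 0.28), Sema3b (1.25 ± 0.25), Ntn4 (1.19 ± 0.16), Sema6d (1.10 ± 0.29), Slit2 (1.05 ± 0.24) and Plxnc1 (0.83 ± 0.17). It was negative for Sema7a (-1.83 ± 0.29), Epha5 (-1.79 ± 0.22) and Ntn5 (-0.76 ± 0.20). The call at day 3 ended without C57BL/6 day 0 replicate 1 for Ephb6 (adjusted p 0.061) and Sema3b (adjusted p 0.054) and without WldS day 3 replicate 1 for Plxnc1 (adjusted p 0.0518). It ended under 5 of the 16 single-array omissions for Slit2 and under 10 for Sema6d and for Ntn5.

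At day 7 the difference was 3.04 ± 0.28 for Sema5a, 1.62 ± 0.28 for Ephb6, 1.10 ± 0.22 for Sema3d, 0.83 ± 0.20 for Sema4g and 0.75 ± 0.16 for Ntn4. On the negative side it was -3.02 ± 0.22 for Epha5, -1.90 ± 0.43 for Sema4f, -1.65 ± 0.20 for Ntn5, -0.82 ± 0.20 for Sema3e and -0.76 ± 0.19 for Unc5c. The Sema3d call ended without C57BL/6 day 0 replicate 1 or C57BL/6 day 7 replicate 1 (adjusted p 0.0594 and 0.0508). The calls of Sema4f, Ntn4, Sema3e, Sema4g and Unc5c ended under 5, 6, 6, 10 and 11 omissions.

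At day 14 the difference was 1.28 ± 0.28 for Efnb3, 0.99 ± 0.22 for Sema3d, -1.03 ± 0.22 for Epha5 and -1.13 ± 0.20 for Ntn5. Each of these calls ended under at least 3 omissions, and for Ntn5 those were C57BL/6 day 0 replicate 2, C57BL/6 day 14 replicate 2 and WldS day 14 replicate 1.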

How the results depend on the processing

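The counts of called guidance genes were recomputed under 25 alternatives, 16 of which left out 1 array each. Of 425 recomputed counts, 394 stayed within 1.5 times the reported count. The other 9 alternatives were no filter or a stricter filter on dim genes, the mean of all probe sets, median centring, quantile or cyclic loess normalization, an intensity trend in the prior variance, the replicate block, and leaving out both arrays of high 3'/5' index. Among these 9, counts moved beyond 1.5 times only when both arrays of high 3'/5' index were left out: from 7 to 3 in WldS from day 7 to day 14, from 10 to 6 for the difference of changes at day 7 and from 4 to 1 at day 14. Leaving out 1 array gave, against day 0 at days 3, 7 and 14, 28 to 37, 23 to 35 and 20 to 28 calls in C57BL/6 and 14 to 20, 14 to 18 and 10 to 18 in WldS. Between neighbouring days it gave 12 to 24 and 6 to 12 in C57BL/6 and 2 to 10 and 3 to 8 in WldS. Between strains it gave 0 to 6, 11 to 16, 9 to 13 and 3 to 12 at days 0, 3, 7 and 14, and for the difference of changes 9 to 17, 4 to 14 and 0 to 5. Of 6344 recomputed values of the 254 called differences, 420 lost the call and 0 reversed. Same-numbered arrays did not deviate in a common direction across groups, though some pairs of groups were correlated. Over 28 pairs of groups the correlation of deviations ran from -0.582 to 0.193, with a median of 0.00583. Of these pairs, 5 exceeded 0.1 and 7 lay under -0.1. With the replicate number as a block the counts against day 0 were 36, 32 and 26 in C57BL/6 and 19, 14 and 16 in WldS, and those for the difference of changes were 11, 10 and 3. Only 2 pools a group limit the precision of every value.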
